A study of Mus musculus with 225 samples.

Results

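Among the single autopod cells of this series, 17 carried reads of at least 2 of the 3 genes *Aldh1a2*, *Msx2* and *Bmp7*, which mark the tissue between the digits, and were compared with the other 59 autopod cells. The members were chosen by their raw reads, a cell being placed in the interdigit-marker class when at least 2 of these genes had 5 or more. The 76 autopod cells are part of 199 retained cells, the remainder being zeugopod cells. All cells came from E12.5 mouse forelimbs heterozygous for *Hoxd11::GFP*, on a mixed C57Bl6CBAF1 background, in which tau-GFP had been knocked into *Hoxd11* and one *Hoxd11* allele was thereby lost. Autopod (hand plate) and zeugopod (forearm) tissue from pooled embryos was dissociated, the 20% of cells with the strongest GFP were sorted, and each cell was captured on a microfluidic chip and sequenced as its own library.

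The autopod cells carry the identifiers of the sequencing runs NXT0072, with 59 retained cells, and NXT0143, with 17. As the labels name no embryo for a cell, each tissue is 1 pooled sample, and neither a p-value nor a standard error was derived from cells. The spread given below is the SD over cells, and the interval of a share is the exact 95% binomial (Clopper-Pearson) interval, which covers counting error only. Cells with less GFP were not sampled, and the study describes the GFP of this line as strong in digits and weak between them. The shares below are therefore shares of the sorted cells and do not estimate how common interdigital cells are. The position of a cell in the hand plate is not known.

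At this stage the digit rays condense into cartilage while the mesenchyme between them remains undifferentiated and later regresses. *Aldh1a2* encodes the enzyme that makes retinoic acid, which acts through nuclear receptors, opposes chondrogenesis and favours interdigital regression. *Bmp7* encodes a secreted bone morphogenetic protein (BMP), and *Msx2* a homeobox factor that responds to BMP signalling, which drives both interdigital cell death and, inside the digit rays, cartilage formation.

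The retinoic acid and BMP pathways reach their targets through short DNA motifs, and 3 stretches upstream of genes described below are shown because each holds one. Retinoic acid receptors bind direct repeats of a hexamer, and *Rarb* is a classical target with such a repeat. The GC-rich motif GGCGCC can be bound by the BMP-activated Smad proteins. The sequences are from RefSeq (GRCm38.p6), are written 5′ to 3′ along the strand of the gene and have the motif in capitals.
*Rarb* (chr14:16575477-16575569, minus strand): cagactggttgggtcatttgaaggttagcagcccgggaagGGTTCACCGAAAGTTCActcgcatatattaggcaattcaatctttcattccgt
*Aldh1a2* (chr9:71215539-71215591, plus strand): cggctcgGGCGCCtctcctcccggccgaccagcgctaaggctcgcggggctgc
*Id2* (chr12:25096278-25096342, minus strand): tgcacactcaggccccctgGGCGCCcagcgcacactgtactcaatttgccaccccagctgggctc
All are promoter sequence before the transcription start. The hexamers GGTTCA and AGTTCA spaced by 5 bases of any kind, searched on both strands in the 250 bases before each start, was found in 2 of 32851 promoters, and the bases of the pair in *Rarb* lay 53 to 37 bases before the start. GGCGCC, which reads the same on both strands, was found in 9.59% of the promoters. Of 26 retinoic acid, BMP-responsive and marker genes, 20 had an entry, and GGCGCC was found in 6 of their 34 promoters, those of *Aldh1a2*, *Crabp1*, *Id2*, *Id4* and *Rxrb*. The motifs were chosen after the values were seen, and a match describes the letters only.

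The interdigit-marker cells made up 22.4% of the autopod cells (interval 13.6 to 33.4). Their share was 18.6% in NXT0072 (11 of 59, interval 9.69 to 30.9) and 35.3% in NXT0143 (6 of 17, interval 14.2 to 61.7), and these intervals overlap. In the zeugopod, 1 cell met the same rule (0.813%, interval 0.0206 to 4.45). Zeugopod cells seldom carried 5 reads of *Aldh1a2* (5 cells) or *Msx2* (2 cells), whereas *Bmp7* was found in 23 of them (18.7%) and in 17 autopod cells (22.4%).

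The 3 genes did not mark one uniform class. All were present at 5 or more reads in 5 of the 17 cells, *Aldh1a2* and *Msx2* in 5, *Msx2* and *Bmp7* in 4, and *Aldh1a2* and *Bmp7* in 3. *Aldh1a2* therefore reached 5 reads in 13 of 17 members, *Msx2* in 14 and *Bmp7* in 12. Where a marker reached 5 reads its number spanned several orders of magnitude, from 18 reads of *Aldh1a2* in cell A_57 to 14831 in cell A_17, and from 16 reads of *Bmp7* in cell A_69 to 10183 in cell A_87. Cell A_17 carried high levels of all 3, with 2770 reads of *Msx2* and 3637 of *Bmp7*.

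**Figure D1:**
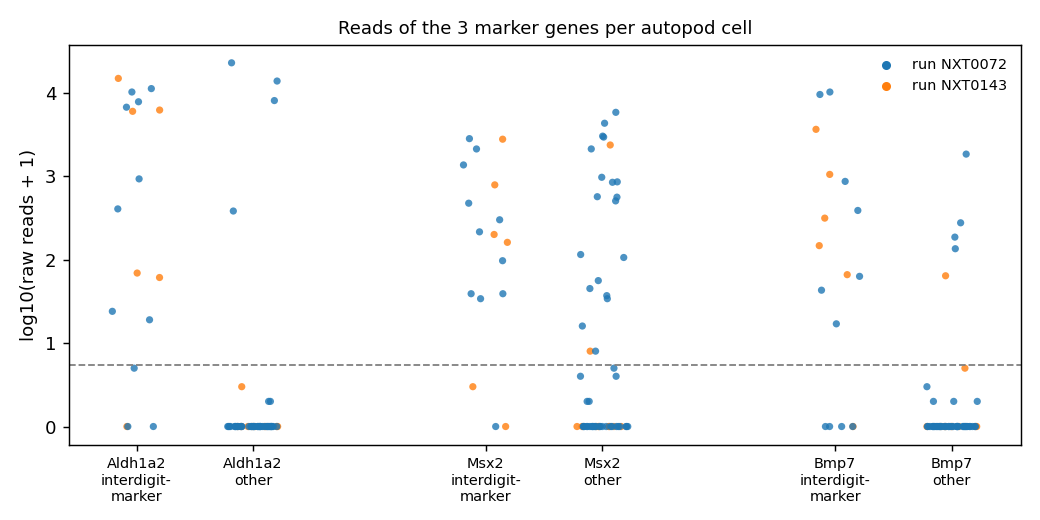
Raw reads of *Aldh1a2*, *Msx2* and *Bmp7* (log10 of reads + 1) in each of the 17 interdigit-marker and 59 other autopod cells, coloured by run, with a dashed line between 4 and 5 reads. *Msx2* lies above the line in 21 of the other cells, and *Aldh1a2* in 4.

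The size of the class varied with the read limit and with depth. It held 25 cells at a limit of 1 read, 17 at 10 reads and 15 at 20 reads. When each cell was thinned to 500000 reads, 13 of 72 cells met the rule, all of them members. In 5 of the 17 members the second marker had 50 reads or fewer, the lowest being 16 in cell A_69 and 18 in cell A_57. Outside the class, 51 of 59 cells had no read of a second marker and 8 had 1 to 4 reads, the closest being cell A_4 with 7 reads of *Msx2* and 4 of *Bmp7*. The other cells comprised 29 with none of the genes at 5 reads, 21 with *Msx2* alone, 5 with *Bmp7* alone and 4 with *Aldh1a2* alone. Of these 4, cell A_64 had 22795 reads of *Aldh1a2*, more than any member, with no read of *Msx2* or *Bmp7*.

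On the deposited normalized scale, given here as mean log2(value + 1), *Aldh1a2* averaged 7.26 ± 5.07 (SD, n = 17 cells) against 1.30 ± 2.90 (n = 59), *Bmp7* 5.23 ± 3.92 against 0.85 ± 1.73, and *Msx2* 5.99 ± 3.44 against 2.71 ± 3.66. These values follow from the rule and are a description of the class.

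The interdigit-marker cells also held more detected genes, which bears on every comparison below. The median number of genes with at least 1 read was 4504 (2931 to 6162) in the interdigit-marker cells and 3414 (1992 to 5833) in the other cells. Median reads on genes were 3592142 and 2691254. After each cell was thinned to 500000 reads, which left 17 and 55 cells, the medians were 3371 and 2746 genes. Within NXT0072 the medians without thinning were 3738 and 3248, and within NXT0143 4513.5 and 3566. The ranges of the classes overlapped widely, and the order of the medians was the same in both runs with and without thinning.

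**Figure D2:**
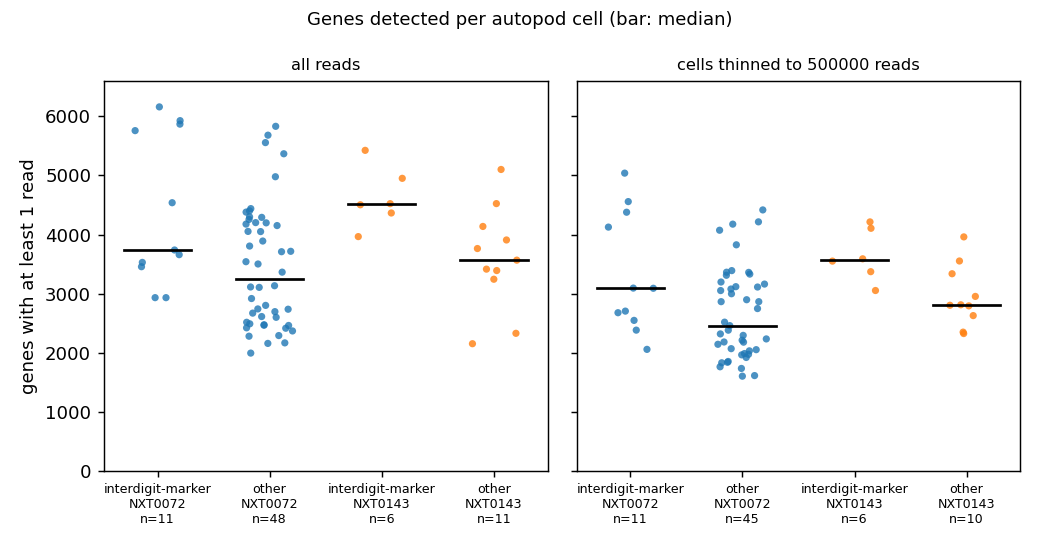
Genes with at least 1 read in each autopod cell, by class and run, with all reads (left) and after thinning to 500000 reads (right); the line is the median. The interdigit-marker median is the higher in each run in both panels, while the points overlap.

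This difference in content went with a broad upward shift. Of 6158 genes with 5 or more reads in at least 12 of the 76 cells, markers left out, 83.3% had a higher mean in the interdigit-marker cells, and 56% were higher within both runs. The median difference over these genes was 0.78 (log2), 0.70 within NXT0072 and 0.83 within NXT0143. A difference of 2 or more, the size limit used in the study, was passed by 607 genes in the upward direction (9.86%) and by 3 in the downward direction (0.0487%). Of the former, 581 were also higher within both runs (9.43%). When run and genes detected were entered as covariates in a least-squares fit, hereafter the adjusted difference, the median became -0.07 and 87 genes were higher (1.41%) and 84 lower (1.36%) by 2 or more. Both limits were passed by 83 genes (1.35%) upward. No kept gene had values that separated the classes without overlap. A pooled difference is therefore read against 0.78, and an adjusted difference against -0.07.

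**Figure D3:**
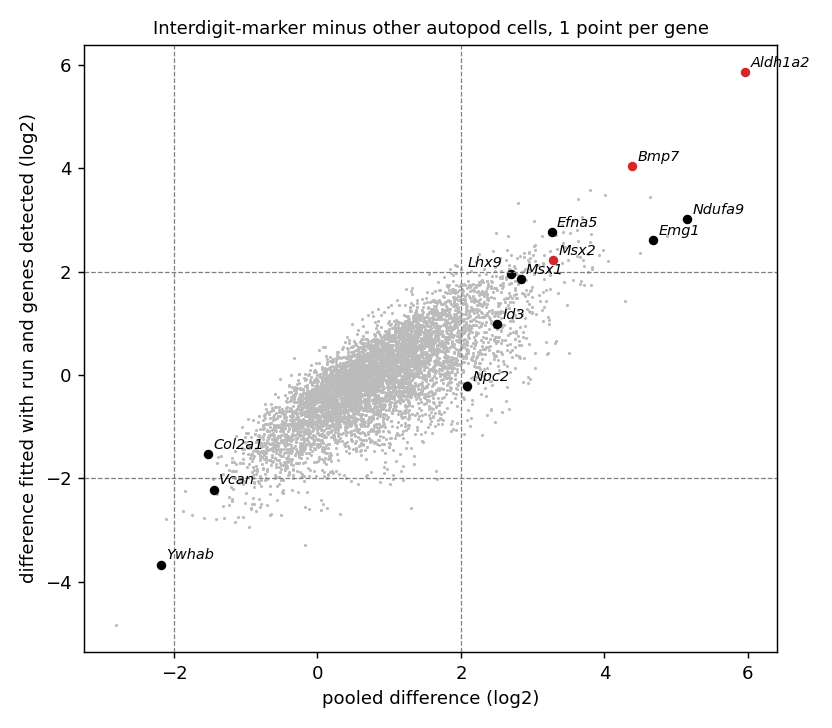
Difference in mean log2(normalized value + 1) between interdigit-marker and other autopod cells for each kept gene (x axis) against the difference from the fit with run and genes detected (y axis); dashed lines stand at 2 and -2, and the markers of the rule are red. The cloud is centred near 0.78 on the x axis and -0.07 on the y axis.

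Over all cells, the BMP-responsive genes were higher in the interdigit-marker cells by more than the bulk of genes. The list comprises the inhibitors of differentiation *Id1* to *Id4* and the homeobox gene *Msx1*, and all 5 were kept. Their median difference was 1.65 beside 0.78 for all genes, 1.65 within NXT0072 and 2.66 within NXT0143, and 0.54 after adjustment. Among the 12 and 26 cells with at least the median number of genes detected it was 0.31, under the 0.42 of all genes. *Msx1* had a median normalized value of 438 in the interdigit-marker cells (highest 14667) and 13.6 in the other cells (highest 12204), and 13 of 17 members lay above the median of the other cells. It reached 5 reads in 13 of 17 cells and in 33 of 59. Its mean was 2.83 higher, 3.02 in NXT0072 and 3.64 in NXT0143, and the adjusted difference was 1.85, the largest of the list.

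*Id3* was detected at 5 or more reads in every interdigit-marker cell and in 57 of 59 other cells. Its median normalized value was 26412 against 8439, the mean was 2.50 higher (2.33 and 2.66 by run), and 13 of 17 members lay above the median of the other cells. *Id2* was higher by 1.65 and *Id1* by 1.46, both in all 17 members and in 56 other cells. *Id4* went the other way, at 4 of 17 and 15 of 59 cells and a difference of -0.34. After adjustment *Id3* differed by 0.99, *Id1* by 0.54, *Id2* by 0.49 and *Id4* by -1.07.

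Among feedback inhibitors of the pathway, *Smad7*, an intracellular inhibitor, reached 5 reads in 12 of 17 interdigit-marker cells and 20 of 59 other cells, with a difference of 2.58 (1.11 and 5.43 by run, 1.72 after adjustment). *Bambi*, a decoy receptor, was present in 10 of 17 and 22 of 59 cells and was higher by 2.09 (3.03 and 0.64, 1.56 after adjustment). *Smad6*, also an inhibitory Smad but below the filter, did not differ in this way. It was found in 2 of 17 and 7 of 59 cells, with a difference of 0.06 (-0.09 after adjustment). *Smad7* was the 1 of 8 kept receptors and Smads to pass the limit, beside 9.86% of all genes in the upward direction. Of the receptors, *Acvr2a* differed by 1.51 (6 of 17 and 9 of 59 cells, 0.77 after adjustment). *Bmpr1a* differed by 1.27 (13 of 17 and 37 of 59 cells) and *Bmpr2* by 1.01. *Bmpr1b*, the receptor of cartilage condensations, differed by -0.20 and was found in 4 of 17 and 20 of 59 cells. The list as a whole had a median of 0.98 (adjusted 0.08), beside 0.78 (adjusted -0.07) for all genes.

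The ligands other than *Bmp7* showed no such pattern. *Bmp2* was found in 3 of 17 and 13 of 59 cells (difference -0.09), *Bmp4* in 1 and 8, and *Gdf5*, a joint gene, in 4 and 10 (difference 0.85). *Nog*, which encodes the BMP antagonist Noggin of the digit rays, reached 5 reads in 2 of 17 interdigit-marker cells and 14 of 59 other cells, its mean being 1.13 lower (-1.27 and -0.59 by run, -1.18 after adjustment).

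The retinoic acid genes were not higher as a group. Of 18 genes, 8 were kept, 7 of them above 0 (83.3% of all genes were), and the median difference was 0.66, slightly under that of all genes; after adjustment it was -0.32. *Dhrs3*, a retinal reductase, differed by -2.07 within NXT0072 and by 4.78 within NXT0143. For *Crabp1* and *Crabp2*, which bind retinoic acid in the cytosol, the differences were 0.13 and 0.69, and for the degrading enzyme *Cyp26b1* 0.64 (8 of 17 and 22 of 59 cells). The receptor *Rarg* was the most widely detected (13 of 17 and 45 of 59 cells, difference 0.61), while *Rxra* differed by 0.74 and *Rara* by -0.05.

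The remaining retinoic acid genes were too rare for the filter. *Rdh10*, which catalyses the step before *Aldh1a2*, had 5 or more reads in 6 of 17 interdigit-marker cells (35.3%, interval 14.2 to 61.7) and in 4 of 59 other cells (6.78%, interval 1.88 to 16.5), and after thinning in 5 of 17 and 2 of 55. The intervals overlap. *Rarb*, whose upstream repeat is shown above, was found in 3 of 17 and 4 of 59 cells. *Stra6* was found in 4 and 5 cells, *Aldh1a3* in 4 and 3, *Rxrb* in 4 and 7, *Aldh1a1* in 0 and 1 and *Rxrg* in 1 and 0. *Rbp4*, *Cyp26a1* and *Cyp26c1* reached 5 reads in no autopod cell.

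Other genes of interdigital mesenchyme did not separate the classes. Of 12 genes in this list, 4 were kept, 2 of which were higher, and the median difference was 0.26, below the 0.78 of all genes. *Msx1* and *Rarg* were the higher, and *Bmp2* and *Mmp11* (5 of 17 and 11 of 59 cells, -0.08) the others. Below the filter, *Adamts9*, a metalloprotease of the matrix, reached 5 reads in 7 of 17 interdigit-marker cells (41.2%, interval 18.4 to 67.1). Among the other cells it did so in 3 of 59 (5.08%, interval 1.06 to 14.1). After thinning the numbers were 5 of 17 and 1 of 55. *Adamts9* was picked after its values were seen, and the share of all genes with intervals as far apart was not computed. *Bmf* was found in 3 and 6 cells, *Tbx2* in 1 and 2 and *Tbx3* in 2 and 2. The class is therefore named after the genes of its rule.

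Among the lists with at least 3 kept genes, the chondrogenic genes were the one with most members lower. Of 18 genes 8 were kept, and 7 of 8 had lower means in the interdigit-marker cells, where 83.3% of all genes were higher. In both runs 4 of 8 were lower, beside 435 of all 6158 genes. Of the 4, *Col9a3* differed by -0.82 within NXT0072 but by -0.005 within NXT0143. The median difference was -0.66, -1.0 within NXT0072, -1.91 within NXT0143 and -1.16 after adjustment. *Col2a1*, the main collagen of cartilage, reached 5 reads in 8 of 17 interdigit-marker cells (47.1%, interval 23 to 72.2) and 35 of 59 other cells (59.3%, interval 45.7 to 71.9). Its median value was 1.32 (highest 1022) against 5.61 (highest 4907), and its mean was 1.53 lower (-1.96 and -2.34 by run, -1.54 after adjustment). *Col11a1* was lower by 1.38, at 5 of 17 and 35 of 59 cells, *Sox6* by 1.03, at 6 and 31 cells, and *Col9a2* by 0.92, at 2 and 18 cells. *Sox6* differed by 0.23 within NXT0143. *Sox9*, the master factor of chondrogenesis, was an exception, with 5 or more reads in all 17 members and in 55 of 59 other cells, median values of 867 and 928 and a difference of 0.38. *Vcan*, the proteoglycan of precartilage condensations, had a median value of 12 against 195 and a mean 1.45 lower (-2.12 and -1.21 by run, -2.22 after adjustment), with 6 of 17 members above the median of the other cells.

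Chondrogenic-marker cells were found in both classes. A chondrogenic rule (5 reads in at least 3 of *Sox9*, *Col2a1*, *Acan*, *Col9a1* and *Matn1*) was met by 6 of 17 interdigit-marker cells (35.3%, interval 14.2 to 61.7) and by 29 of 59 other cells (49.2%, interval 35.9 to 62.5), and after thinning by 4 of 17 and 22 of 55. Without the cells that met it, which left 11 and 30, the median of the chondrogenic list was 0.37 beside 1.15 for all genes, *Col2a1* differed by -0.04 and *Vcan* by -0.34. The rule uses *Sox9*, *Col2a1* and *Col9a1*, so that their differences among the cells left follow in part from the selection.

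The 11 interdigit-marker cells without the chondrogenic rule were then set beside the 29 chondrogenic-marker cells outside the class, with the 6 cells that met both rules left out. Here 1955 genes (31.7%) were higher and 22 (0.357%) lower by 2 or more, with a median difference of 1.37, and median genes detected were 4539 and 3243. In the fit with run and genes detected the shares were 7.76% higher and 5.83% lower. *Col2a1*, *Col9a1* and *Sox9* belong to the chondrogenic rule and differed by -5.30, -2.85 and -1.48. Outside both rules, *Vcan* was 4.15 lower (adjusted -5.44), *Sox6* 2.55 lower and *Nog* 2.50 lower (-3.22 and -0.23 by run). In the other direction, *Msx1* was higher by 5.77 (adjusted 3.39), *Lhx9* by 4.88 (adjusted 2.80) and *Twist1* by 3.31 (adjusted 3.27). *Twist1* differed by 5.36 within NXT0072 and by -0.17 within NXT0143. *Id3* was higher by 2.65, but its adjusted difference was -0.19.

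Transcription factors of distal, undifferentiated limb mesenchyme lay above the bulk of genes in NXT0072 and below it in NXT0143, a difference between runs that was not tested. Of 20 factors 14 were kept and 13 were above 0, beside 83.3% of all genes, and 7 of the 14 were above 0 in both runs, beside 56% of all genes. The median difference was 1.44, but 2.27 within NXT0072 (0.70 for all genes) and 0.20 within NXT0143 (0.83 for all genes), and 0.35 after adjustment. *Lhx9*, a LIM-homeobox factor, reached 5 reads in 14 of 17 and 33 of 59 cells, with median values of 236 and 3.26, and was higher by 2.70 (3.89 and 1.36 by run, 1.96 after adjustment). *Prdm16* was detected in all 17 members and in 53 of 59 other cells and was higher by 2.28 (2.58 and 1.15, 1.22 after adjustment). *Lmo4* was higher by 2.22 (2.36 and 3.04, 1.75 after adjustment) and *Lhx2* by 1.96 (1.84 and 2.42). *Tbx5*, the forelimb factor, and *Twist1* pointed in opposite directions in the runs, at 3.0 and -2.61, and 3.51 and -1.09. Of the proximal factors *Meis1*, *Meis2* and *Shox2*, no autopod cell reached 5 reads.

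**Figure D4:**
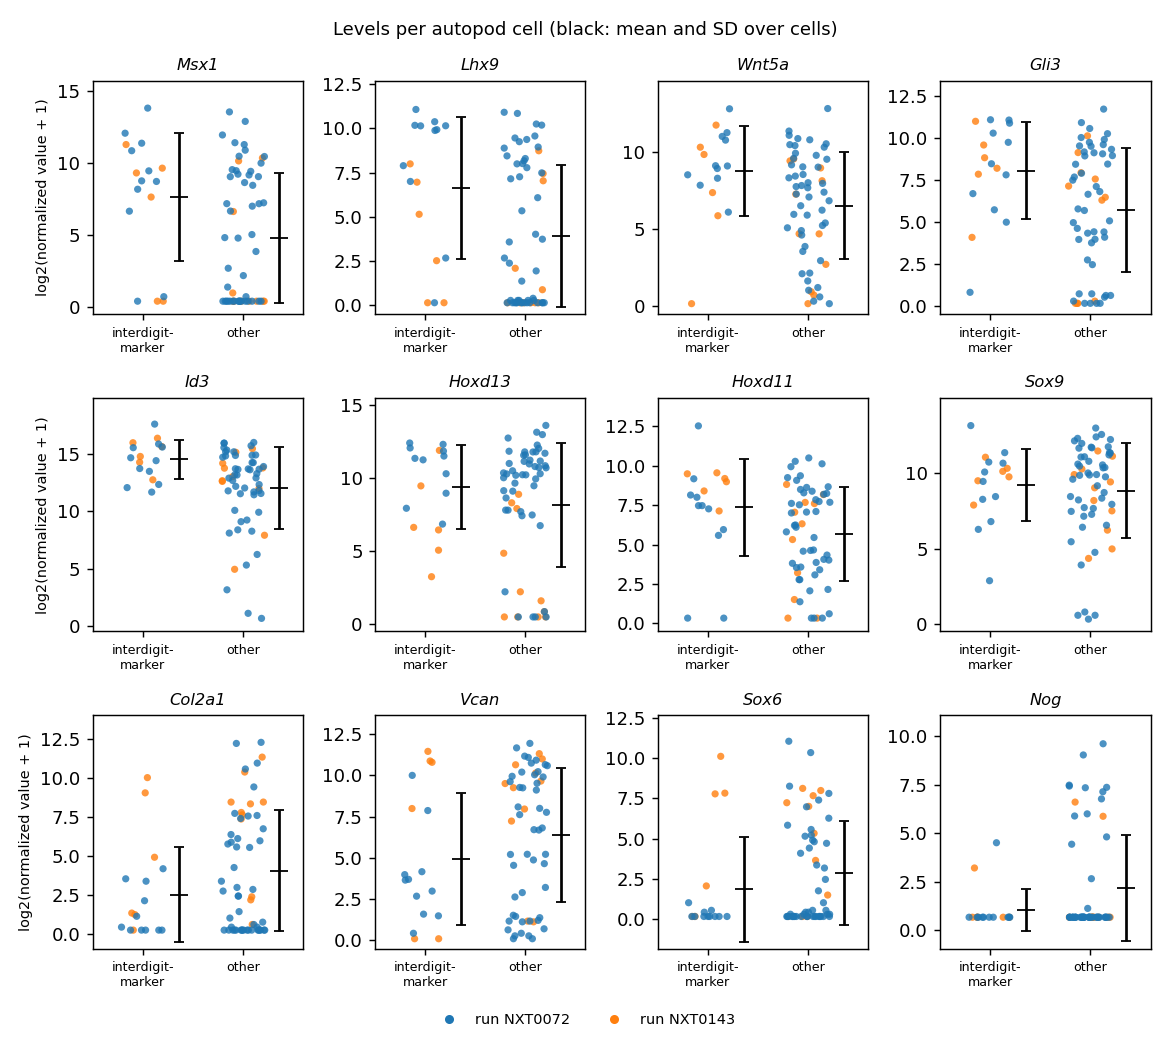
Level of 12 genes in each autopod cell, as log2(normalized value + 1), by class and coloured by run, with the mean and SD over cells in black. *Msx1* and *Lhx9* lie above the median of the other cells in 13 and 14 of 17 members, *Vcan* in 6, and *Sox9* has like values in both classes.

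The *Hoxd* genes, for which the cells had been sorted, were present in both classes. *Hoxd13* reached 5 reads in all 17 interdigit-marker cells and in 48 of 59 other cells. Its median value was 1245 against 1029 and its mean was 1.21 higher (1.33 and 3.79 by run, 0.54 after adjustment). *Hoxd11* was found in 15 and 52 cells with medians of 254 and 72.9 and a difference of 1.70 (0.79 and 3.66, 0.32 after adjustment). *Hoxd10* was found in 11 and 32 cells and differed by 1.83 (2.61 and 0.49, 0.80 after adjustment). *Hoxd12* was found in 10 and 27 cells and differed by 1.14 (-0.70 after adjustment), but in opposite directions in the runs, at 2.04 within NXT0072 and -0.66 within NXT0143. *Hoxd9* reached 5 reads in none of 17 members, which allows a share of up to 17.6% by the limit of 3 cells and up to 19.5% by the exact interval, and in 6 of 59 other cells. The 9 kept of 12 *Hox* genes and neighbours had a median of 1.14 and an adjusted median of -0.02.

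A *Hoxd* gene was also called on when its normalized value was at least 5 and at least 5% of the highest *Hoxd* value of the cell. *Hoxd13* and *Hoxd11* were then on together in 10 of 17 interdigit-marker cells (58.8%, interval 32.9 to 81.6) and in 24 of 59 other cells (40.7%, interval 28.1 to 54.3). *Hoxd13* without *Hoxd11* was seen in 5 of 17 and 22 of 59 cells, all of them in run NXT0072. In 8 of 17 members and 15 of 59 other cells 3 or more *Hoxd* genes were on. The intervals overlap for each of these combinations. *Hoxa11* reached 5 reads in 1 and 4 cells, whereas *Hoxa11os*, its antisense transcript, was found in 12 and 36; the library kit does not mark strand, so their reads cannot be told apart where they overlap.

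Among signalling genes outside the BMP pathway, the list medians ran from 0.53 to 0.90 beside 0.78 for all genes. The Wnt list had a median difference of 0.90 (adjusted 0.22). *Wnt5a*, the non-canonical ligand of distal mesenchyme, was higher by 2.25 (2.61 and 2.34 by run, 1.13 after adjustment), with 14 of 17 members above the median of the other cells. *Axin2*, a target of canonical Wnt signalling, was found in 7 and 13 cells and was higher by 1.89 (adjusted 1.93), but by 0.16 when the classes were set by *Aldh1a2* alone. The hedgehog list had a median of 0.83 (adjusted 0.27), with *Gli3* detected in all 17 members and 47 of 59 other cells and higher by 2.36 (2.10 and 3.22, 1.15 after adjustment). *Ptch1*, a hedgehog target, differed by 0.50. The FGF list had a median of 0.53 (adjusted -0.04), led by the feedback inhibitor *Spry1* (10 of 17 and 10 of 59 cells, 1.75, 1.38 after adjustment). Of the Notch genes, with a median of 0.80 (0.85 and -0.25 by run, 0.53 after adjustment), *Jag1* differed by 3.38 and -0.80 in the runs and *Notch2* by 1.28 and 3.10.

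Among the matrix and adhesion genes, with a median of 0.72, *Efna5* had the largest difference. This membrane-bound ephrin reached 5 reads in 11 of 17 interdigit-marker cells and 12 of 59 other cells, and 9 of 17 and 7 of 55 after thinning. It was higher by 3.27 (1.94 and 3.96 by run), and the adjusted difference of 2.76 was also past the limit. *Fbn2*, which encodes a fibrillin whose loss fuses digits, was higher by 1.88 (adjusted 0.89), and *Epha4* by 1.42 (adjusted 0.39).

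Cell death genes shifted with the bulk of genes after adjustment. The list had 12 kept members, a median of 1.23 and an adjusted median of 0.08. *Bcl2l1*, which encodes the survival factor Bcl-xL, reached 5 reads in 10 of 17 and 12 of 59 cells and was higher by 3.37 (1.29 and 6.33, 1.97 after adjustment). *Bax*, which encodes a pore-forming killer protein, was found in 9 and 18 cells and was higher by 2.76 (1.08 and 5.84), but by 0.13 after adjustment. *Bcl2l11*, a trigger of apoptosis, was higher by 1.92 (adjusted 1.33). These are transcript levels only.

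Proliferation genes were present in the class. A cycling rule (5 reads in at least 3 of *Mki67*, *Top2a*, *Ccnb1* and *Cdk1*) was met by 6 of 17 interdigit-marker cells (35.3%, interval 14.2 to 61.7) and 12 of 59 other cells (20.3%, interval 11 to 32.8), and after thinning by 6 of 17 and 9 of 55. The intervals overlap. Of the 6 cycling members, 5 were from NXT0072. The 11 kept G2/M genes were all above 0, beside 83.3% of all genes, with a median of 1.44 and an adjusted median of 0.49. By run the median was 1.59 within NXT0072 and 0.70 within NXT0143, the latter below the 0.83 of all genes, and it was -0.21 when the classes were set by *Aldh1a2* alone. *Cdk1* was higher by 2.51 and *Top2a* by 2.40. The 12 S-phase genes had a median of 1.11 and an adjusted median of -0.01.

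**Figure D5:**
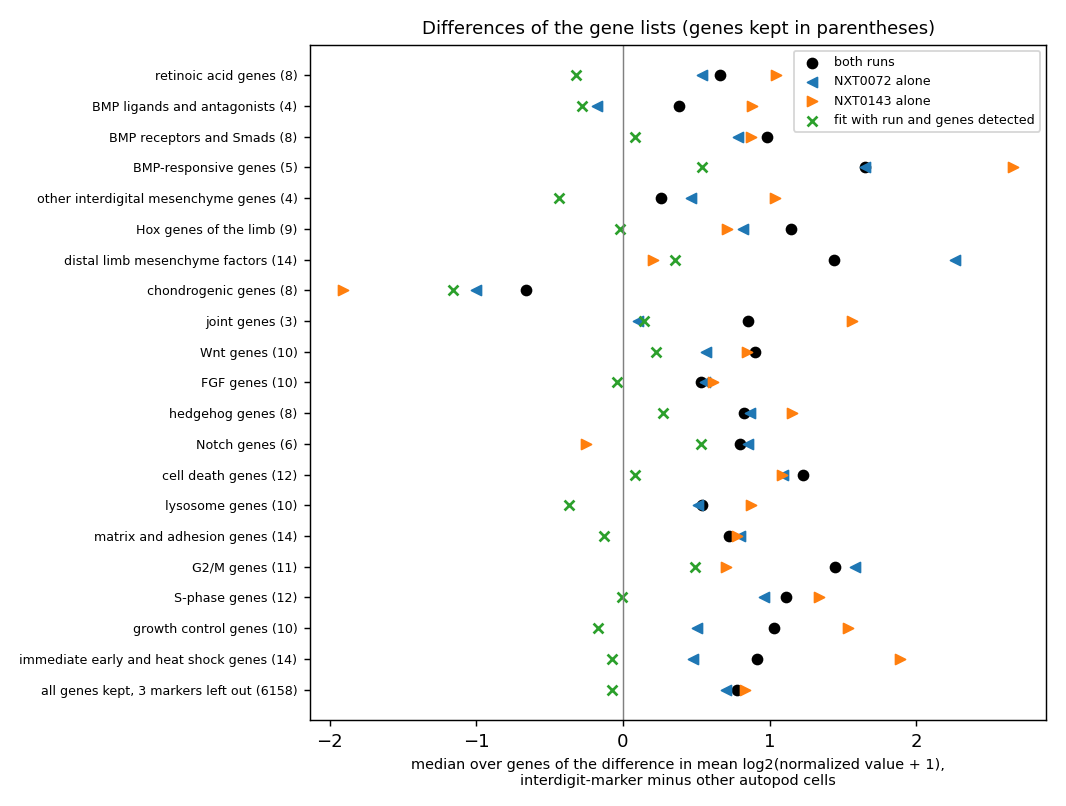
Median over the kept genes of each list of the difference between interdigit-marker and other autopod cells, for both runs, for each run alone and from the fit with run and genes detected; the number of genes is in parentheses and the bottom row holds all kept genes. The BMP-responsive list is above and the chondrogenic list below the all-gene median under each of the 4 calculations.

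Among the kept genes with the same sign in both runs, markers left out, the largest upward differences were those of genes outside the gene lists. The 10 highest were *Ndufa9*, *Umps*, *Emg1*, *Ccdc6*, *Nup93*, *Poldip3*, *Fam168b*, *Raver1*, *Sf3b5* and *Cfap20*, between 5.15 and 3.93. *Ndufa9*, a subunit of respiratory complex I, reached 5 reads in 11 of 17 and 13 of 59 cells and was higher by 5.15 (adjusted 3.02). *Umps*, an enzyme of pyrimidine synthesis, was found in 14 and 11 cells and was higher by 4.87 (adjusted 2.70).

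Of the 10 lowest, 3 passed the limit. *6330403K07Rik* reached 5 reads in 5 of 17 and 38 of 59 cells and was lower by 2.81 (-2.98 and -2.82 by run, -4.83 after adjustment). *Ywhab*, a 14-3-3 protein gene, was found in 7 and 43 cells (-2.19, -3.67 after adjustment) and *Jkamp* in 2 and 25 (-2.11, -2.79 after adjustment). *Errfi1*, an inhibitor of EGF receptor signalling, was found in 1 of 17 and 21 of 59 cells (-1.84, -2.24 after adjustment), and *Ptgr1* in 1 and 16. *Ppapdc1b*, *Appbp2*, *Col2a1*, *Dscr3* and *Vcan* complete the list.

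Markers of other tissues were rare in both classes. The tendon, muscle, epithelium, endothelium, macrophage and Schwann rules were each met by 0 of 17 and 0 of 59 cells; counts of 0 allow shares of up to 17.6% and 5.08% by the limit of 3 cells, and up to 19.5% and 6.06% by the exact intervals. Of their 24 markers, 11 had no read in any autopod cell (among them *Tnmd*, *Myod1*, *Krt14*, *Cdh1* and *Emcn*). *Scx* reached 5 reads in 2 of 17 members, *Csf1r* in 2, and *Sox10* and *Erbb3* in 1 each. The blood rule could not be met, since 1 of its 4 genes, *Hba-x*, had a row.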

How the data were processed

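Single forelimb cells were captured in 2 tissues, 225 in all. The authors mapped reads uniquely to GRCm38 (mm10) with Bowtie2 and deposited raw counts per gene and cell. They also deposited a normalized signal for 10948 genes in 199 retained cells. It was made by dividing counts by spike-in size factors and by the length of the gene. The size factors had been mean-centred per batch, and the study does not say whether a batch is a run. A gene without reads sits at 1 divided by its length in kb in the deposited signal. Spike-in rows of the count table were not used, and reads had no molecular identifiers.

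Cells were classed on the counts (5 reads in 2 of 3 markers), and differences were taken between means of log2(signal + 1), for genes with 5 reads in at least 15% of the 76 cells. The adjusted difference came from a least-squares fit (numpy 2.4.6) with run and genes detected. CPM was computed from the counts. Thinning to 500000 reads used seed 42. Intervals came from scipy 1.17.1. Since each tissue is 1 pooled sample, no test was run. No doublet caller was applied, and no 2 autopod cells had identical counts. On simulated data of 6161 genes, all 200 changed genes had the right direction. Each gene had been permuted over the cells and given a shift larger than 2 (log2) in a random class. This checks the calculation only, since permuting removed any difference in genes detected between the classes.

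The members and the 28 gene lists were chosen with earlier results of these data known. In each list the kept genes with the largest absolute difference, up to 4, were named (*Hoxd*, *Id* and retinoic acid genes in full), as were the 10 highest and 10 lowest differences of those genes whose sign did not differ between the runs. Genes named beyond this rule, such as *Adamts9*, *Bmp4*, *Twist1*, *Tbx5*, *Hoxa11*, *Ptch1*, *Epha4*, *Bmpr1b*, *Sox9* and those of the cell type rules, were chosen after their values were seen. Some members of the lists are not reported here.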

Additional observations from a re-analysis of the deposited data

How the results depend on the processing

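No paired analysis was possible because no result comes from a test, and cell numbers only name cells. The number of interdigit-marker cells was 5 when all 3 markers were required, and their share was 35.3% in NXT0143. The share of genes past a difference of 2, 9.86% higher and 0.0487% lower, was 5.34% and 0.130% with log2(CPM + 1), 5.72% and 0.146% with CPM of thinned cells, 17.4% and 0.114% with a pseudocount of 0.1, 2.09% and 0 with a pseudocount of 10, 23.2% and 1.93% in NXT0143 alone, and 1.41% and 1.36% in the fit with run and genes detected. The lower share was 0.162% in NXT0072 alone, 0.0812% with the mean of the runs and 1.27% among cells with at least the median genes detected. Without cells of another marker rule the shares were 25.6% and 0.0812%, with classes set after thinning 5.16% and 0.325%, with 3 of 3 markers 28.9% and 0.633%, and with *Aldh1a2* alone 6.54% and 0.0162%. Against chondrogenic-marker cells, 31.7% and 0.357% became 17.8% and 0.861% with log2(CPM + 1) and 7.76% and 5.83% in the fit, and 5.42% were lower in NXT0143 alone. The chondrogenic share of the other cells was 64.4% at 1 read, and their cycling share was 9.09% in NXT0143. *Npc2*, higher by 2.09, had -0.22 in the fit. The BMP-responsive median was 0.31, under the 0.42 of all genes, among cells with at least the median genes detected. The cause was not tested. With 17 members, shares carry wide intervals, and how far genes detected set a single gene's difference was not tested beyond the fit.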

Other observations

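Immediate early and heat shock genes were all kept (14 of 14) and all above 0, beside 83.3% of all genes, and 8 of 14 were above 0 in both runs, beside 56%. Their median difference was 0.91, with 0.48 within NXT0072 (0.70 for all genes), 1.89 within NXT0143 (0.83 for all genes) and -0.08 after adjustment. *Atf3*, a stress-induced factor, reached 5 reads in 8 of 17 interdigit-marker cells and 11 of 59 other cells and was higher by 3.40 (1.55 and 5.71 by run, 2.17 after adjustment). *Dnajb1*, a co-chaperone, was higher by 2.76 (adjusted 1.15) and *Ier2* by 2.51 (adjusted 0.28). *Fos* was found in 15 and 56 cells and *Egr1* in 16 and 53. Their part in the differences above was not tested.

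Among growth control genes, with a median of 1.03 and an adjusted median of -0.17, *Mycn* was found in 9 of 17 and 10 of 59 cells and was higher by 2.55 (1.64 and 4.39, 1.74 after adjustment). *Ccnd1* was higher by 2.26 but by 0.01 after adjustment. *Cdkn1c*, a cell cycle inhibitor, was higher by 1.77 (adjusted 0.13). Of 10 kept lysosome genes 8 were above 0, beside 83.3% of all genes, with a median of 0.54 and an adjusted median of -0.37. *Ctsd*, below the filter, was found in 1 of 17 and 10 of 59 cells. The 3 kept joint genes had a median of 0.85.

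The 4 members with *Msx2* and *Bmp7* but fewer than 5 reads of *Aldh1a2* were cells A_22, A_28, A_69 and A_92. Of these, A_22 and A_92 met the chondrogenic rule and A_28, A_69 and A_92 the cycling rule. With 4 cells no comparison was made.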
